A study of Homo sapiens with 3 samples.

Results

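The 7 genes described here encode large chromatin regulators: the histone methyltransferases KMT2A, KMT2D and KMT2C, the histone acetyltransferases EP300 and CREBBP, and the chromatin-remodelling subunits ARID1A and ARID1B. Their members in the data are regions of N6-methyladenosine (m6A) whose midpoint lies within limits given for each gene in whole kilobases of hg19. The rule found 88 such regions in 1196 kb, which is 0.210% of the 41836 regions listed for the series. The limits and the strand of each gene belong to the rule, and no measured value was used to choose the regions within these limits. The genes themselves were chosen with earlier results of these data known.

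The study captured nuclear RNA of MDA-MB-231 cells, an established line from a human breast cancer, with a rabbit antibody against m6A in 2 libraries and with rabbit IgG as control in 1 library. The outcome analysed is 1 list of regions for all libraries together, with 0 columns for a single library. No treatment or genotype was compared, the depth and the enrichment over IgG are unknown, and replicate errors cannot be given. Intervals are 95% intervals for counting alone, and because neighbouring regions can share 1 RNA they are narrower than the true uncertainty. No test between genes was run, and a difference between genes is read only against these intervals.

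m6A is a methyl mark that the METTL3 and METTL14 methyltransferase complex places on adenosines of nuclear RNA, and in mRNA it is known to be frequent in long internal exons and around stop codons. KMT2A, KMT2D and KMT2C methylate the histone H3 tail, KMT2A mainly at promoters and the paralogs KMT2D and KMT2C mainly at enhancers. EP300 and CREBBP are paralogous acetyltransferases that act as coactivators at enhancers, and ARID1A and ARID1B are alternative subunits of the BAF form of the SWI/SNF nucleosome remodeller.

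All 88 regions carried the strand of the gene they lay in. The plus-strand genes KMT2A, EP300, ARID1A and ARID1B held 43 regions, and the minus-strand genes KMT2D, KMT2C and CREBBP held 45. No region in any of the 7 genes was on the opposite strand: 0 of 88 allows a share of up to 3.41%, for counting error only. The share on the gene's strand was 100% in the genes, against 60.6% (20 of 33 regions) in intervals of the same length on either side of each gene, where the strand of neighbouring genes was not used. This pooled share describes no single gene, since the 13 opposite-strand regions lay only beside ARID1B (9) and EP300 (4). Single genes limit this less closely: 0 of 19 in KMT2D allows a share of up to 15.8% on the opposite strand, and 0 of 4 in ARID1B one of up to 75%.

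Long exons were checked in GENCODE release 29, which describes GRCh38. Lengths were taken from it and no position, so no region is assigned here to an exon, an intron or a UTR. The gene lengths in it, such as 40.8 kb for KMT2D and 88.9 kb for ARID1A, differ slightly from the limits of 38 and 87 kb used here. In the transcript with the longest coding sequence, the longest exon of all 7 genes was the last, from 2000 nt in KMT2C to 4936 nt in KMT2A. Exons of at least 1 kb between the first and the last were found in 4 of the 7 genes. KMT2D had 6 of them, the longest being exon 39 with 2790 nt, and KMT2C had 4, the longest being exon 36 with 1884 nt. KMT2A had 2, exon 27 with 4249 nt and exon 3 with 2654 nt, and ARID1B had 1, exon 2 with 2610 nt. EP300, CREBBP and ARID1A had none, with longest inner exons of 635, 713 and 892 nt. The first exon was also longer than 1 kb in ARID1A (1508 nt) and EP300 (1313 nt). Exon 2 of ARID1B counts as inner because the transcript used starts with an exon of 107 nt. Among 17148 protein-coding genes with an inner exon, the median of the longest inner exon was 218 nt and 6.33% had one of at least 1 kb. The longest inner exons of EP300, CREBBP and ARID1A exceeded those of 87.7%, 89.4% and 92.5% of these genes. The median last exon of 18493 genes with several exons was 1113 nt, shorter than that of each of the 7 genes.

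**Figure D1:**
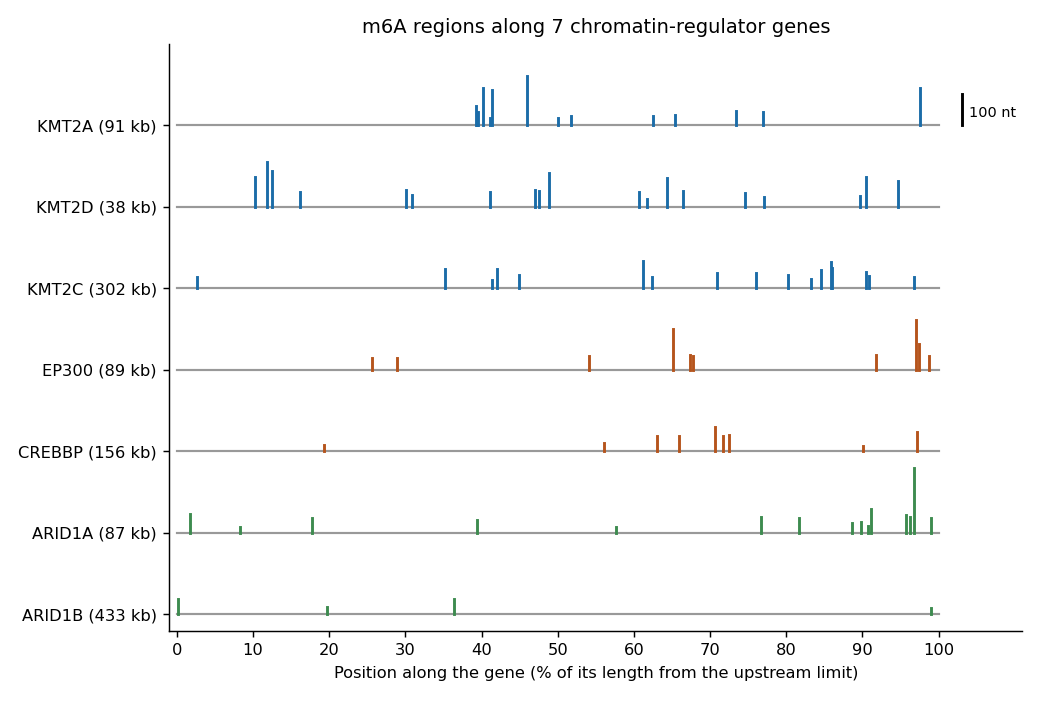
Position of each of the 88 m6A regions along its gene, in percent of the gene's length from its upstream limit on its own strand; the height of a line is the width of the region (scale bar, 100 nt), with genes grouped by family. Regions of KMT2D run from 10.3 to 94.7% of the gene, the first 39.3% of KMT2A holds no region, and 6 of the 15 regions of ARID1A lie in its last 10%.

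Among the methyltransferase genes, KMT2D had the most regions per length of gene of all 7 genes, with 19 regions in 38 kb on the minus strand of chromosome 12 (49412 to 49450 kb), or 50 regions per 100 kb (95% exact Poisson interval, 30.1 to 78.1). Every gap between its regions was at most 10 kb, the longest being 5.26 kb and the median 0.90 kb, so that all 19 form 1 chain from 49413972 to 49446143. No region on either strand was listed in the 76 kb of its flanks, where the exact Poisson interval of a count of 0 reaches 4.85 regions per 100 kb. The nearest regions outside the gene lay 47.8 kb upstream and 61.9 kb downstream of its limits.

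Within KMT2D, 16 of 19 regions fell into clusters, defined as at least 2 regions of the gene's strand with gaps of at most 1 kb. The 6 clusters were spread along the gene. The most upstream one, from 49445214 to 49446143, held 3 regions of 95, 144 and 115 nt, which covered 38.1% of its 930 nt, and the region of 144 nt (49445441 to 49445584) was the widest of the gene. A pair of 55 and 37 nt followed from 49438257 to 49438585. Near the middle, 3 regions of 55, 52 and 107 nt lay from 49431368 to 49432166.

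The KMT2D cluster with the most regions held 4, of 49, 26, 94 and 51 nt, from 49424743 to 49426963, a span of 2.22 kb. Its regions covered 9.91% of the span, against 38.1% in the most upstream cluster. Pairs from 49420719 to 49421672 (46 and 33 nt) and from 49415558 to 49415923 (34 and 96 nt) lay in the downstream part. The 3 regions outside clusters had 47 nt (49443845 to 49443891), 49 nt (49434366 to 49434414) and 84 nt (49413972 to 49414055). The last of these was the most downstream region, 2.01 kb before the limit. The downstream 50% of the gene held 9 of the 19 regions.

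KMT2A, which is rearranged in a subset of acute leukaemias, had 14 regions in 91 kb on the plus strand of chromosome 11 (118307 to 118398 kb), or 15.4 per 100 kb (8.41 to 25.8). The first 35.7 kb after its upstream limit, 39.3% of the gene, held no region. The regions then began with the largest cluster found in any of the 7 genes, 6 regions within 2.01 kb from 118342698 to 118344709. Their widths were 63, 28, 44, 120, 24 and 114 nt in 5′ to 3′ order, and they covered 19.5% of the span. This was the single cluster of KMT2A, and its span can be set beside the 2654 nt of exon 3 and the 4249 nt of exon 27 without assigning it to either.

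Downstream of that cluster the regions of KMT2A were isolated. The widest region of the gene, with 158 nt, lay from 118348724 to 118348881. Further regions of 25 and 31 nt lay at 118352480 to 118352504 and 118354013 to 118354043. They were followed by 30 nt (118363885 to 118363914), 35 nt (118366509 to 118366543), 46 nt (118373758 to 118373803) and 43 nt (118377032 to 118377074). After a gap of 18.6 kb, the longest in the gene, a region of 118 nt lay from 118395697 to 118395814, 2.25 kb before the downstream limit. KMT2A held 4 regions wider than 100 nt, the most of the 7 genes, while its median width was 43.5 nt, so that wide and very short regions were both present.

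KMT2C had 17 regions, nearly as many as KMT2D, but in 302 kb on the minus strand of chromosome 7 (151832 to 152134 kb), or 5.63 per 100 kb (3.28 to 9.01). They thinned out toward the upstream end. A single region of 37 nt lay 7.96 kb from the upstream limit (152126022 to 152126058), and the next came after a gap of 98.3 kb, at 152027657 to 152027719 with 63 nt. The other 3 regions of the upstream 50% were 28 nt at 152008973 to 152009000, 63 nt at 152007098 to 152007160 and 42 nt at 151998416 to 151998457. The downstream 50% held 12 of the 17 regions.

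Clustering in KMT2C was limited to 2 pairs. One held 85 and 64 nt from 151874363 to 151874740, and the other 52 and 39 nt from 151859744 to 151860641. The widest region, 87 nt from 151949018 to 151949104, stood with a neighbour of 37 nt at 151945569 to 151945605. None of the 17 regions exceeded 100 nt. The median gap was 10.8 kb, against 0.90 kb in KMT2D, and the last region (151841914 to 151841950, 37 nt) lay 9.93 kb from the downstream limit. Stretches of KMT2C are known to have near-identical copies elsewhere in the genome, and how reads with several matches were treated is not given in the sources used here, so its count is uncertain.

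**Figure D2:**
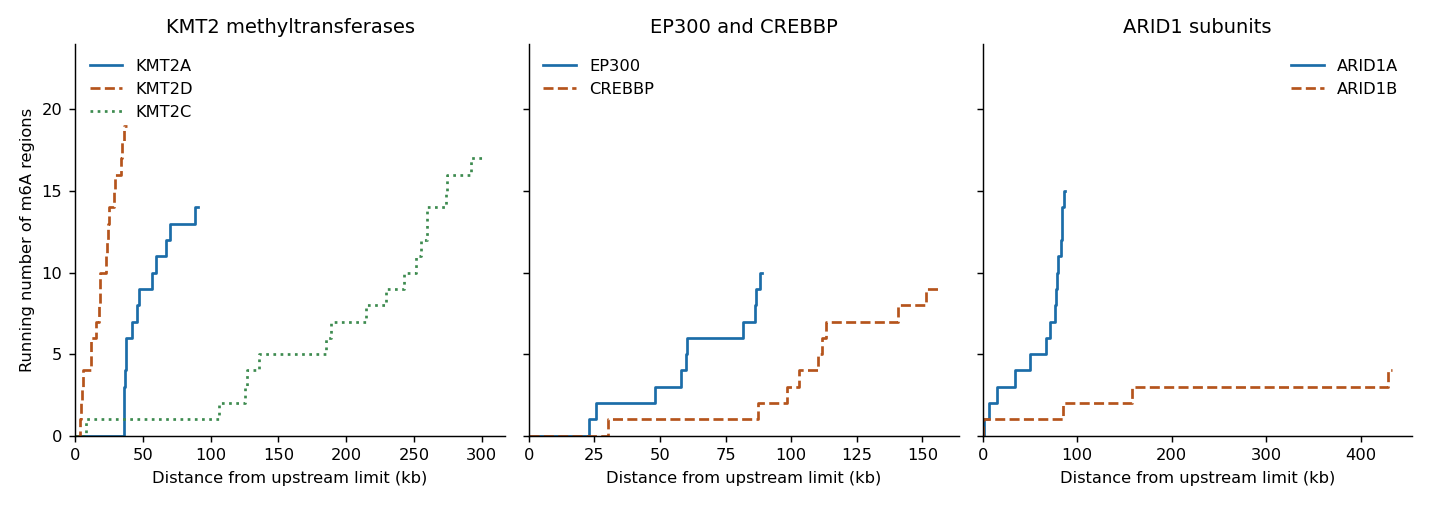
Running number of m6A regions (vertical axis) against distance from the upstream limit of each gene in kb (horizontal axis), in 3 panels by gene family; each step is 1 region and each line ends at the downstream limit. KMT2D reaches 19 regions within 38 kb and KMT2C 17 within 302 kb, KMT2A starts after 35.7 kb, and ARID1B reaches 4 in 433 kb.

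Of the acetyltransferase genes, EP300 had 10 regions in 89 kb on the plus strand of chromosome 22 (41488 to 41577 kb), or 11.2 per 100 kb (5.39 to 20.7). They formed 3 groups along the gene. A first pair of short regions, 37 nt at 41510743 to 41510779 and 39 nt at 41513643 to 41513681, began 22.8 kb from the upstream limit. A middle group of 4 ran from 41536175 to 41548345 and included a region of 130 nt at 41545922 to 41546051 and a cluster of 49 and 45 nt from 41547937 to 41548345.

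The last 4 regions of EP300 lay in its final 10%, from 41569716 to 41575939. They held its other cluster, 161 and 82 nt from 41574228 to 41574746, which covered 46.8% of 519 nt, the highest covered share of the 13 clusters. The region of 161 nt (41574228 to 41574388) was the widest of the gene and its centre lay 2.69 kb before the downstream limit. For comparison of scale, the annotated last exon of EP300 is 3307 nt long, in another build and not aligned to these positions. In all, 8 of 10 regions of EP300 were in its downstream 50%.

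CREBBP had 9 regions in 156 kb on the minus strand of chromosome 16 (3775 to 3931 kb), or 5.77 per 100 kb (2.64 to 10.9), and 8 of the 9 were in its downstream 50%. It had no cluster, its shortest gap being 1.28 kb. The most upstream region, 22 nt at 3900853 to 3900874, was separated from the next by 57.3 kb. A loose group of 5 ran over 14.9 kb from 3817860 to 3832774, with widths of 50, 49, 79, 50 and 52 nt in 5′ to 3′ order. The region of 79 nt (3820764 to 3820842) was the widest of the gene, and none exceeded 100 nt. The remaining regions had 28 nt (3843551 to 3843578), 19 nt (3790428 to 3790446) and 61 nt (3779490 to 3779550). The last of them lay 4.52 kb from the downstream limit.

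ARID1A had 15 regions in 87 kb on the plus strand of chromosome 1 (27022 to 27109 kb), or 17.2 per 100 kb (9.65 to 28.4). They gathered at the downstream end, with 10 of 15 in the last 25% of the gene and 6 in the last 10%. Both of its clusters lay there. The first, from 27100146 to 27101315, held 34, 23 and 75 nt. The second, from 27105249 to 27106269, held 58, 50 and 206 nt, covered 30.8% of 1021 nt, and its region of 206 nt (27106064 to 27106269) was the widest of all 88. A last region of 47 nt (27108163 to 27108209) lay 0.81 kb before the limit.

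Upstream of these, the regions of ARID1A were far apart. One of 61 nt lay 1.52 kb from the upstream limit (27023487 to 27023547), and 4 more were spread over the next stretch to 27072106, with widths of 19, 48, 42 and 20 nt. Regions of 51 nt (27088682 to 27088732), 47 nt (27093000 to 27093046) and 32 nt (27099082 to 27099113) led up to the first cluster. The final 10 regions formed 1 chain of 19.5 kb with gaps of at most 10 kb.

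ARID1B, the longest gene with 433 kb on the plus strand of chromosome 6 (157099 to 157532 kb), had the fewest regions, 4, or 0.92 per 100 kb (0.25 to 2.37). A region of 49 nt lay 0.35 kb from the upstream limit (157099323 to 157099371). Regions of 25 nt (157184379 to 157184403) and 48 nt (157256642 to 157256689) followed. A gap of 270.7 kb separated the last of these from a region of 20 nt at 157527419 to 157527438, 4.57 kb from the downstream limit. All 4 stood alone, and the shortest gap was 72.2 kb.

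Per length of gene the order was KMT2D, ARID1A, KMT2A, EP300, CREBBP, KMT2C and ARID1B. The interval of KMT2D did not overlap that of ARID1A, which came next with a 2.90 times lower density, and the interval of ARID1B did not overlap that of KMT2C, 6.09 times higher. The other neighbours in this order, from ARID1A to KMT2C, had overlapping intervals. The 7 genes differ widely in intron content, from 52.4% of the annotated gene in KMT2D to 97.5% in ARID1B, and the order of density is the order of increasing length except that KMT2A (91 kb) stands before EP300 (89 kb).

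Per length of mRNA the genes were closer together. The number of regions within the gene, divided by the length of the transcript with the longest coding sequence, was 0.84 per kb in KMT2A (0.46 to 1.41), 0.98 in KMT2D (0.59 to 1.53) and 1.01 in KMT2C (0.59 to 1.61). It was 1.04 in EP300 (0.50 to 1.92) and 0.83 in CREBBP (0.38 to 1.58). ARID1A had 1.75 (0.98 to 2.88) and ARID1B 0.37 (0.10 to 0.95). This ratio uses the mRNA length as a yardstick and does not place the regions in exons.

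The 3 pairs of paralogs differed in how far the yardstick changed the comparison. KMT2D had 8.88 times the density of KMT2C per length of gene, with intervals that did not overlap, and 0.97 times per length of mRNA, with overlapping intervals. The uncertainty of the KMT2C count from near-identical copies of the gene is not covered by these intervals. EP300 had 1.95 times the density of CREBBP per length of gene and 1.25 times per length of mRNA, and the intervals overlapped on both scales. ARID1A had 18.7 times the density of ARID1B per length of gene and 4.72 times per length of mRNA, with intervals that parted narrowly on the mRNA scale. Among regions at least as wide as the median of the list, 9 in ARID1A and 2 in ARID1B, the mRNA-scale intervals of 0.48 to 1.99 and 0.02 to 0.67 overlapped. The amount of each RNA in these nuclei was not measured in the list, so its part in any of these differences was not tested.

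**Figure D3:**
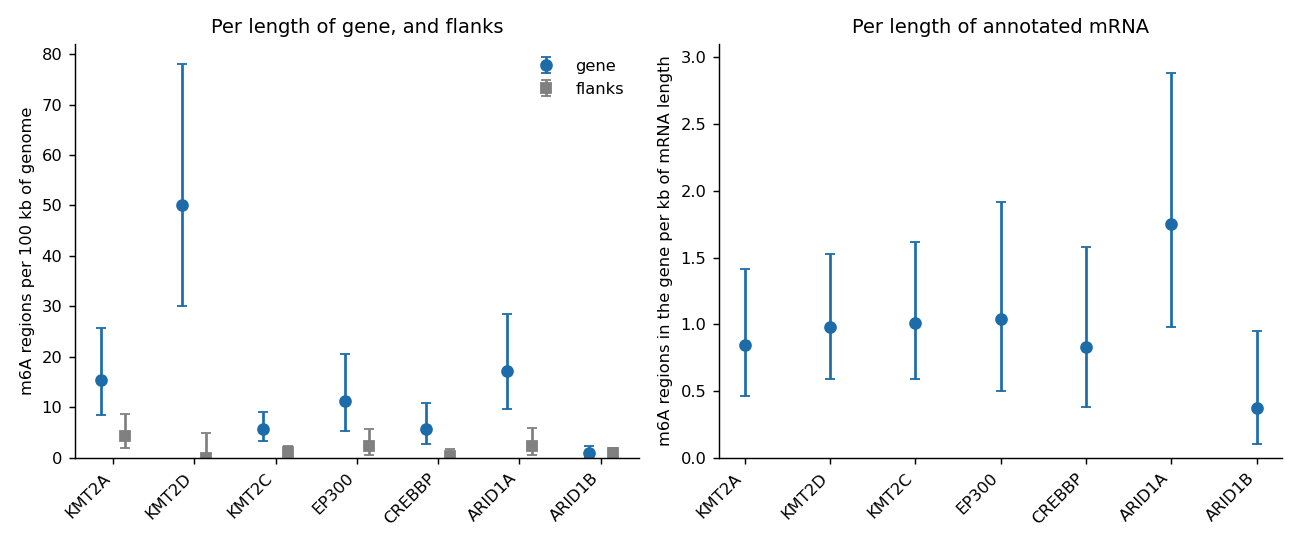
Left, m6A regions per 100 kb in each gene (circles) and in its 2 flanks of the same length together (squares); right, m6A regions in the gene per kb of annotated mRNA; bars are 95% exact Poisson intervals for counting error. KMT2D stands at 50 per 100 kb of gene and at 0.98 per kb of mRNA, near KMT2C at 1.01, while ARID1B is lowest on both scales. The bars do not cover the uncertainty of the KMT2C count from near-identical copies of the gene.

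The density was higher in the gene than in its flanks for 6 of the 7 genes, with flanks of the gene's own length. Together they held 7.36 regions per 100 kb (5.90 to 9.06), against 1.38 (0.95 to 1.94) in flanks of the same length on both sides, which held 33 regions in 2392 kb. Gene and flank intervals did not overlap for KMT2D, KMT2C, CREBBP and ARID1A. For KMT2A the density was 15.4 per 100 kb in the gene and 4.40 (1.90 to 8.66) in the flanks, and for EP300 11.2 in the gene and 2.25 (0.61 to 5.75) in the flanks, with overlapping intervals in both cases. ARID1B was the exception, with 0.92 in the gene and 1.04 (0.48 to 1.97) in the flanks. This exception depends on the length of the flanks, since flanks of 50 kb beside ARID1B held 0 regions and the density was then higher in all 7 genes. For ARID1B no direction can be read from either length. Its intervals overlapped with flanks of the gene's length. At 0.92 regions per 100 kb, a count of 0 in flanks of 50 kb can come from counting error. All 9 flank regions of ARID1B and all 4 of EP300 were on the opposite strand, whereas the 8 of KMT2A, 7 of KMT2C, 4 of ARID1A and 1 of CREBBP were on the gene's strand. The flanks hold other genes, which were not identified here.

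The limits of the genes did not cut through a run of regions. With same-strand regions up to 10 kb apart joined into chains, no chain through a member reached past the limits of its gene. The regions just inside the limits were 0.35 kb (ARID1B, upstream) to 35.7 kb (KMT2A, upstream) away from them, and had widths of 20 to 118 nt. The closest region just outside was 14.8 kb upstream of KMT2C, with 27 nt, and the farthest was 607.5 kb upstream of ARID1B, with 49 nt.

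Along the genes, the last 10% of gene length held 19 of the 88 regions (21.6%) and the first 10% held 4 (4.55%). The last 10% held more than the first in every gene but ARID1B, where each held 1. The last 10% held 6 regions in ARID1A against 2 in the first 10%, 4 against 0 in EP300 and 3 against 1 in KMT2C. It held 2 against 0 in KMT2D and in CREBBP, and 1 against 0 in KMT2A. Counts per gene are small and some regions lie close to the cut. The first 3 regions of KMT2D lay at 10.28 to 12.45% of the gene, and 1 of the 2 of CREBBP at 90.1%. Other cuts were not tried, so the contrast within a single gene is uncertain. More than 50% of the regions lay in the downstream 50% of KMT2C, EP300, CREBBP and ARID1A, and fewer in that of KMT2A, KMT2D and ARID1B. Equal parts of gene length are not equal parts of mRNA length.

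In width, the 88 regions were close to the whole list. Their median was 49 nt with quartiles of 37 and 63 nt, against 45 nt with quartiles of 33 and 54 nt in the list, and 11.4% (10 regions) exceeded 100 nt, against 10.3% in the list. Medians by gene ran from 36.5 nt in ARID1B and 43.5 nt in KMT2A to 50 nt in CREBBP and 52 nt in KMT2D. The 10 regions over 100 nt were in KMT2A (4), KMT2D (3), EP300 (2) and ARID1A (1), and 7 of them lay in clusters. Regions in clusters had a median of 53.5 nt and 19.4% over 100 nt (7 of 36), and those outside clusters 46.5 nt and 5.77% (3 of 52). In the whole list the shares were 15.5% in clusters and 6.88% outside. The region names contain the word merged, and whether a joining of nearby regions by the authors links width to clustering was not tested.

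**Figure D4:**
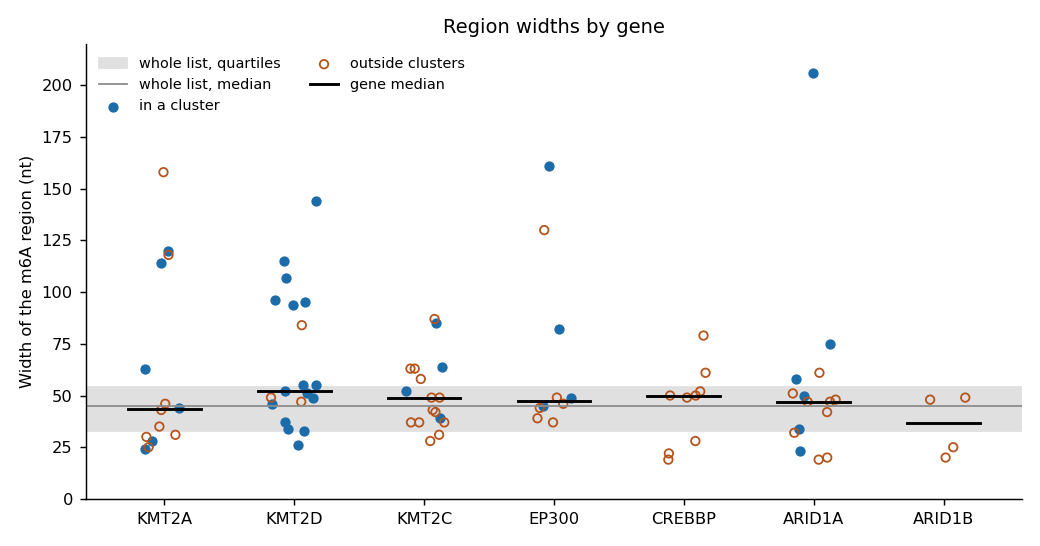
Width in nt of each of the 88 m6A regions by gene, in clusters (filled) or outside them (open), with the gene's median (black bar) and the median and quartiles of the whole list (grey line and band; sideways scatter of points has no meaning). The widest region, of 206 nt, is in ARID1A, and no region of KMT2C, CREBBP or ARID1B exceeds 100 nt.

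Clustering in the 7 genes as a whole was also near that of the list. In clusters lay 36 of 88 regions (40.9%), against 39.2% in the list. By gene the share was 84.2% in KMT2D (95% Wilson interval, 62.4 to 94.5%), 42.9% in KMT2A, 40.0% in EP300 and in ARID1A and 23.5% in KMT2C (9.55 to 47.3%), with none in CREBBP and ARID1B. The interval of KMT2D did not overlap those of KMT2C, CREBBP and ARID1B, and overlapped those of KMT2A, EP300 and ARID1A. With a fixed joining distance of 1 kb, this share can rise with density alone, which was 0.5 regions per kb in KMT2D and 0.056 in KMT2C. The share is therefore not read here as a trait separate from density, and clustering beyond that given by density was not tested. The 13 clusters spanned 0.33 to 2.22 kb, with a median of 0.90 kb, and 6 of them held at least 3 regions, 3 in KMT2D, 2 in ARID1A and 1 in KMT2A. Of the genes with the most inner exons of at least 1 kb, KMT2D had 6 clusters and KMT2C 2. This order turned at a joining distance of 10 kb, where the 19 regions of KMT2D form 1 cluster and KMT2C has 4.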

How the data were processed

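Per the labels' protocols, an m6A antibody (2 libraries) or IgG (1 library) was used to precipitate RNA from MDA-MB-231 nuclei. The authors deposited 1 list of regions with start, end, strand and a score. The deposited score is 1 for every region and was not used. The submitters' processing notes name Bowtie2 and the build hg19. Not given in the sources used here are the peak caller, its thresholds, the use of the IgG library, the treatment of reads with several matches and the merging of libraries. Depth is therefore unknown, and the labels do not say whether the m6A libraries came from separate cultures.

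Regions were assigned by midpoint to gene limits in whole kb. Positions are hg19, counted from 1. Width is the end minus the deposited start. Distances and percentages refer to midpoints, and gaps run from the end of a region to the start of the next. Clusters joined regions of the gene's strand with gaps of at most 1 kb. Flanks had the length of the gene on each side. Exact Poisson and Wilson intervals were at 95%, and the limit for a share at a count of 0 used 3 counts. Exon and mRNA lengths came from the basic set of GENCODE release 29 (GRCh38), using the transcript with the longest coding sequence. No coordinate was compared between builds. A list of other chromatin regulators was not analysed here for lack of an hg19 annotation, and no sequence of a region is shown for lack of an hg19 genome. All 7 genes were named, with all their clusters and the widest region of each. The genes, lists and measures were chosen with earlier results of these data known. No test was run, since the list has no value per library. The functions were tested on simulated data with known answers. Software was scipy 1.17.1, matplotlib 3.10.9, pandas 2.3.3 and numpy 2.4.6 under Python 3.11.15.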

Additional observations from a re-analysis of the deposited data

How the results depend on the processing

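Of 119 alternative values for the 7 genes, 99 stayed within the counting interval of the reported value or, for counts of clusters, within 1.5 times of it. Many of the 99 could not move, because the same regions entered. This holds for assignment by any overlap, for the gene's strand only, and for width and strand share with widened limits. The count of 99 is therefore not a measure of stability. The share on the gene's strand was 100% in every gene with limits widened by 5 kb and among regions at least as wide as the list's median. Neither setting could give another value. Widening by 5 kb adds no region, and the wider regions are part of the same 88, all on the gene's strand. Restriction to those wider regions lowered the density to 6.59 per 100 kb (0.36 per kb of mRNA) in KMT2A and to 2.98 per 100 kb (0.53 per kb of mRNA) in KMT2C, left 3 clusters in KMT2D, 1 in KMT2C and 1 in ARID1A, and put 100% of the regions of EP300, 100% of those of CREBBP and 0% of those of ARID1B in the downstream 50%. Fewer regions enter by construction. At a joining distance of 0.5 kb KMT2A had 2 clusters and KMT2C 1. At 2 kb KMT2A had 2 and CREBBP 1, and at 10 kb KMT2D had 1, KMT2C 4 and CREBBP 1, which turns the order of KMT2D and KMT2C. With flanks of 50 kb, the density beside CREBBP, ARID1A and ARID1B was 0. The value for ARID1B thereby turned to higher in the gene, but a count of 0 in flanks this short gives no direction. These flanks are shorter than the ones reported for each of the 3 genes. The alternative mRNA length and the wider regions per kb of mRNA were chosen after seeing the data. Leaving out each m6A library was not run, and no paired analysis was possible because libraries have no values of their own in the list. With no read counts, what depth allows could not be measured.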

Other observations

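The short sequence GGACT, a form of the motif at which m6A is known to be placed, was counted on the sense strand of the GENCODE transcripts of the 7 genes, with no reference to where the regions lie. It occurred 18 times in KMT2A (1.08 per kb), 16 times in KMT2D (0.82), 12 times in KMT2C (0.71), 10 times in EP300 (1.04), 8 times in CREBBP (0.74), 6 times in ARID1A (0.70) and 6 times in ARID1B (0.55). Over 19659 protein-coding genes the median was 0.94 per kb with quartiles of 0.53 and 1.43, and 87.7% of transcripts held it, and all 7 genes lie between those quartiles. ARID1A had the most regions per kb of mRNA and ARID1B the fewest, with the 2 lowest rates of this sequence among the 7. The rank of ARID1A is uncertain, since 0.70 from 6 matches is close to 0.71 in KMT2C and 0.74 in CREBBP. A relation between this sequence and the number of regions was not tested. A match of these letters is a description and not a methylated site.

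Regions of exactly 49 nt, the most frequent width of the list, numbered 8 of 88 in these genes (9.09%), against 8.79% in the list. KMT2D, KMT2C and EP300 held 2 each, CREBBP and ARID1B 1 each, and KMT2A and ARID1A none.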
